A study of Rattus norvegicus with 6 samples.

Results

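The messenger RNA of the left ventricle was described in adult rats on a control diet (Control), as read by 2 of the 6 expression arrays of a feeding study. The rats were male Wistar, an outbred laboratory strain, started on their diet at 6 weeks of age and kept on it for 12 weeks. They were 18 weeks old at collection and had been fasted overnight, a state shared by all diet groups of the study. Each Control array was hybridised with RNA pooled from 5 rats, so the 2 arrays are 2 pools and the spread between single rats was not measured. The other 4 arrays held ventricles of rats fed a Western diet plus docosahexaenoic acid (Western plus DHA) or a Western diet (Western), 2 pools for each diet, and no diet is compared here. All 31042 probe sets other than the manufacturer's controls were ranked by the mean of the 2 Control arrays. A probe set is a group of short probes read together as 1 transcript. Probe sets with 1 gene symbol stood for 14217 genes, each taken at its brightest probe set.

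The ventricle is the pumping chamber wall, built mostly of striated muscle cells by volume, with capillary endothelium, fibroblasts, smooth muscle, resident macrophages and nerve endings between them. Its muscle cells contract without rest, so they are packed with sarcomeres, the repeating units of thick myosin and thin actin filaments, and with mitochondria that burn fatty acids and lactate. Calcium released from the sarcoplasmic reticulum starts each beat, and a calcium pump takes it up again. Many of these proteins come as isoforms, near copies encoded by separate genes, of which heart, skeletal muscle and other tissues use different ones.

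Levels are log2 values, and pairs of values are Control pool 1 and then pool 2. A gene was called bright if its probe set was in the top 10% of all probe sets, at 8.84 or above. It was called middling between the median of all probe sets, 5.35, and that limit, and dim below the median. Probes differ in how well they bind, so levels of different probe sets are only roughly comparable, and no fold is given between genes. By this rule 2367 genes were bright (16.6% of all genes), 6902 were middling (48.5%) and 4948 were dim (34.8%). These shares are the background for every count of a list below. Levels ran between 1.77 and 14.23. On the linear scale the bright probe sets held 70.4% of the summed signal and the dim ones 3.34%, while the 100 brightest held 14.6%.

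The 30 brightest genes with a probe set of their own were almost wholly genes of the mitochondrial respiratory chain, the sarcomere, calcium uptake and fuel use. At the top stood COX1 (14.22 and 14.25) and COX2 (14.15 and 14.21), the cytochrome oxidase subunits that the mitochondrial genome encodes. Next came Myl2, the regulatory myosin light chain of the ventricle (14.03 and 13.87), and Slc25a4, the heart and muscle carrier that exchanges ADP for ATP across the mitochondrial membrane (13.92 and 13.96). Tpm1 (alpha tropomyosin), Fabp3 (the fatty acid binding protein of heart), Atp2a2 (the calcium pump of the sarcoplasmic reticulum), Tnnt2 and Tnni3 (cardiac troponins T and I) and Myl3 (the ventricular essential light chain) followed, with means between 13.74 and 13.86. Cox6a2, the oxygen store myoglobin (Mb), the phosphate carrier Slc25a3, the small heat shock protein Cryab, Pln and Myh6 came after these. The rest of the 30 were Atp5f1b, Tnnc1, Ckmt2, Ldhb, Cox8b, Idh2, Atp5f1a, Cox4i1, Ndufb9, Rps29, Cox6c, Atp5mc3, Atp5f1c and Mdh1. Rps29, a protein of the cytosolic ribosome, was among them at 13.39 and 13.38. The pools differed little on these genes: the largest SD among the 30 was that of Myl2, 0.118 (n = 2). Probe sets with more than 1 symbol were outside this ranking of genes, and some were as bright. Examples are the brightest shared by Acta2 and cardiac actin Actc1 (13.90 and 13.86), and that of Gapdh and Gapdhl10 (13.74 and 13.53).

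The sarcomere genes were bright nearly throughout. Of the thick filament list 9 of 9 measured genes were bright, with Myl2, Myl3, Myh6 and the giant spring protein titin (Ttn, 12.92 and 12.89) in front. Of the thin filament list 8 of 12 were bright and 0 dim, led by Tpm1, Tnnt2, Tnni3 and troponin C (Tnnc1, 13.59 and 13.56). Of the Z-disc and cytoskeleton list 16 of 19 were bright. Its leaders were Cryab (13.66 and 13.60), the calcineurin-binding Z-disc protein Myoz2 (13.10 and 13.33), the stretch-responsive ankyrin protein Ankrd1 (13.04 and 13.36) and the muscle LIM protein Csrp3 (13.10 and 13.17). Only Ankrd2, the relative of Ankrd1 found in skeletal muscle, was dim in that list (5.43 and 5.05). Over the 3 lists together 33 of 40 measured genes were bright, with a median of 11.91, against 6.55 for all genes. Genes without a probe set of their own, among them cardiac actin (Actc1), are not counted in these lists.

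**Figure D1:**
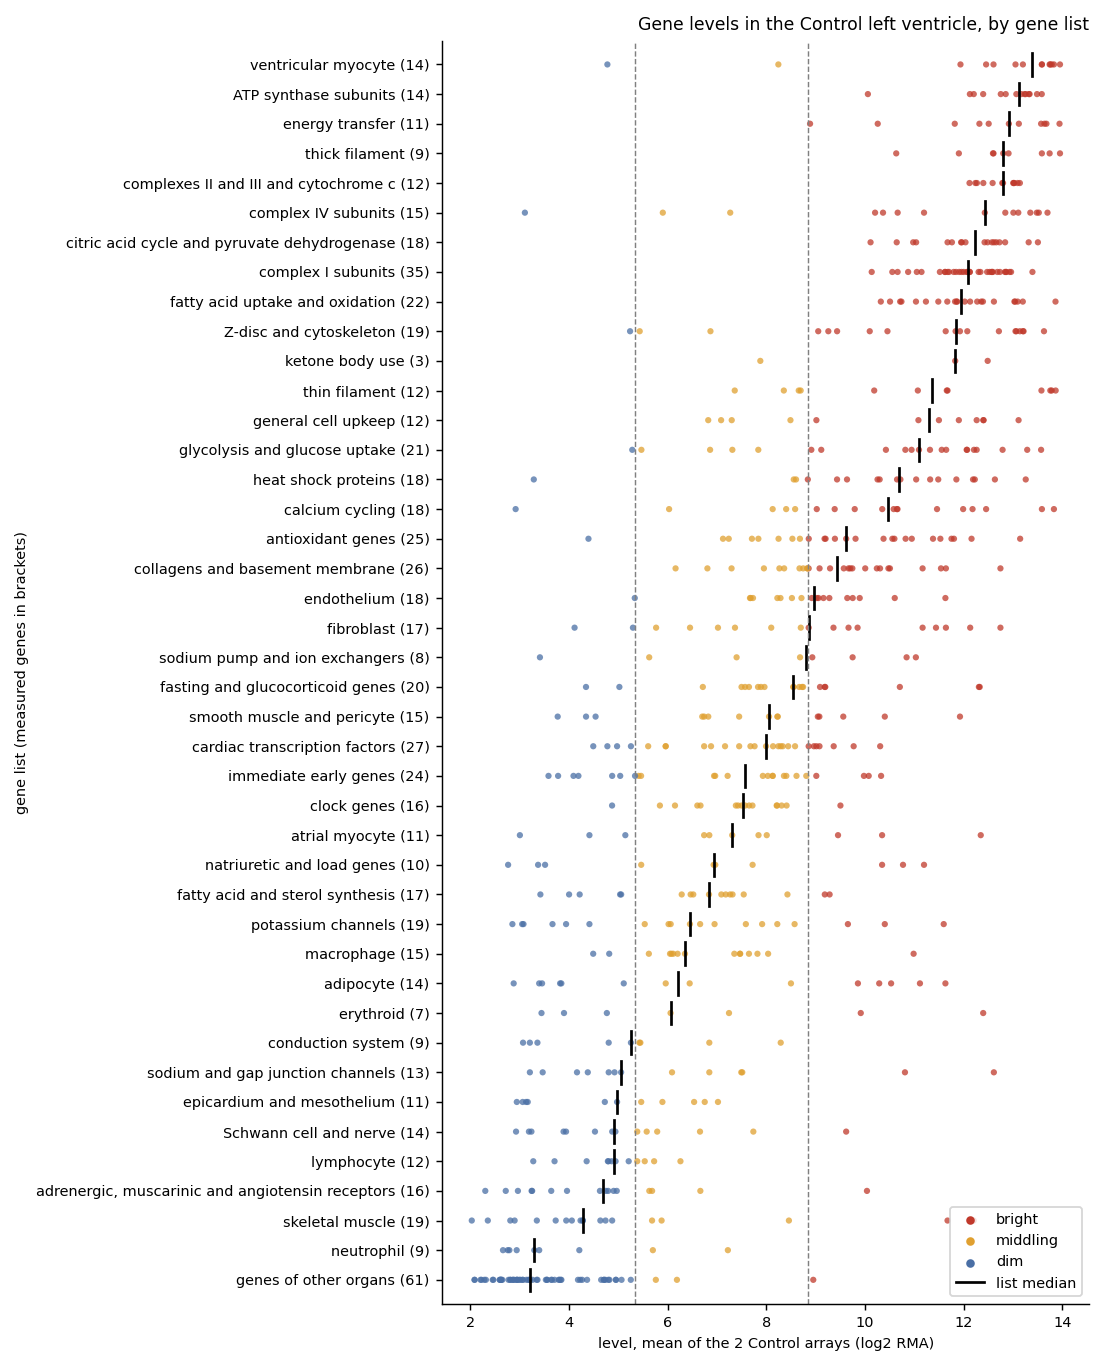
Levels of the measured genes of 42 gene lists in the Control left ventricle, on the log2 scale of the deposited values (horizontal axis), 1 row per list ordered by its median, 1 point per gene at the mean of the 2 pools. Black strokes are list medians and dashed lines are the limits 5.35 and 8.84 between dim, middling and bright; the mitochondrial and sarcomere lists sit at the right, and genes of other organs, neutrophils and skeletal muscle at the left.

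Within contractile families, the isoform known from the ventricle was usually the brightest. Among myosin heavy chains, the motors of the thick filament, Myh6 (the fast alpha chain) stood at 13.52 and 13.65 and Myh7 (the slow beta chain) at 12.66 and 12.52. Both were bright, and Myh6 was above Myh7 in both pools. The embryonic chain Myh3, the perinatal chain Myh8 and the fast skeletal chains Myh2 and Myh4 were dim, at 2.03 to 3.46. Probe sets annotated as Myh1, another fast skeletal chain, were bright (12.28 and 12.13 for the brightest). Of these 5 probe sets, 0 carried a curated RefSeq messenger RNA accession in the platform annotation. The same holds for the probe sets of other named genes, among them Myl2, Atp2a2, Ryr2 and the dim Myh2 and Myh4. Which myosin transcript the Myh1 probe sets read was not established here.

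In the troponins, myosin binding proteins C and alpha actinins the cardiac member alone was bright. Tnni3 read 13.76 and 13.75, while the slow skeletal troponin Tnni1 was middling at 5.46 and 5.91 and the fast Tnni2 dim at 4.80 and 4.95. Tnnt2 read 13.80 and 13.77, and the skeletal Tnnt3 and Tnnt1 were dim. Tnnc1 was bright and Tnnc2 dim (3.57 and 3.12). Mybpc3, the cardiac myosin binding protein C, read 12.76 and 12.45, while Mybpc2 was middling and Mybpc1 dim. Actn2, the alpha actinin of striated muscle, read 12.87 and 12.56, and the skeletal Actn3 was dim at 3.91 and 3.98. Among regulatory light chains Myl2 was followed by the widely expressed Myl12a (12.35 and 12.59), and the atrial Myl7 was middling at 7.64 and 8.38. Among essential light chains Myl3 was bright, and the atrial Myl4 (7.01 and 7.61) and the skeletal Myl1 (6.51 and 6.05) were middling. The skeletal actin Acta1 was bright too, at 11.89 and 11.45.

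Calcium handling genes repeated this order. Atp2a2 read 13.87 and 13.79, against 6.49 and 6.59 for Atp2a3 and 4.47 and 4.80 for the skeletal pump Atp2a1. Phospholamban (Pln), the small protein that restrains the pump, read 13.51 and 13.66, and its relative sarcolipin (Sln) was middling at 7.99 and 7.69. The release channel Ryr2 read 12.40 and 12.51, while Ryr3 was middling and the skeletal Ryr1 dim. The calcium store protein Casq2 read 12.18 and 12.17, and its skeletal relative Casq1 was middling at 8.58 and 8.34. Of the whole list 13 of 18 measured genes were bright, and 8 of 18 when each gene was taken at the mean of its probe sets. The L-type channel subunits Cacna1c (8.78 and 8.38) and Cacna2d1 (8.01 and 8.24) were middling, and Fkbp1b, a protein that binds Ryr2, was dim (2.98 and 2.86).

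**Figure D2:**
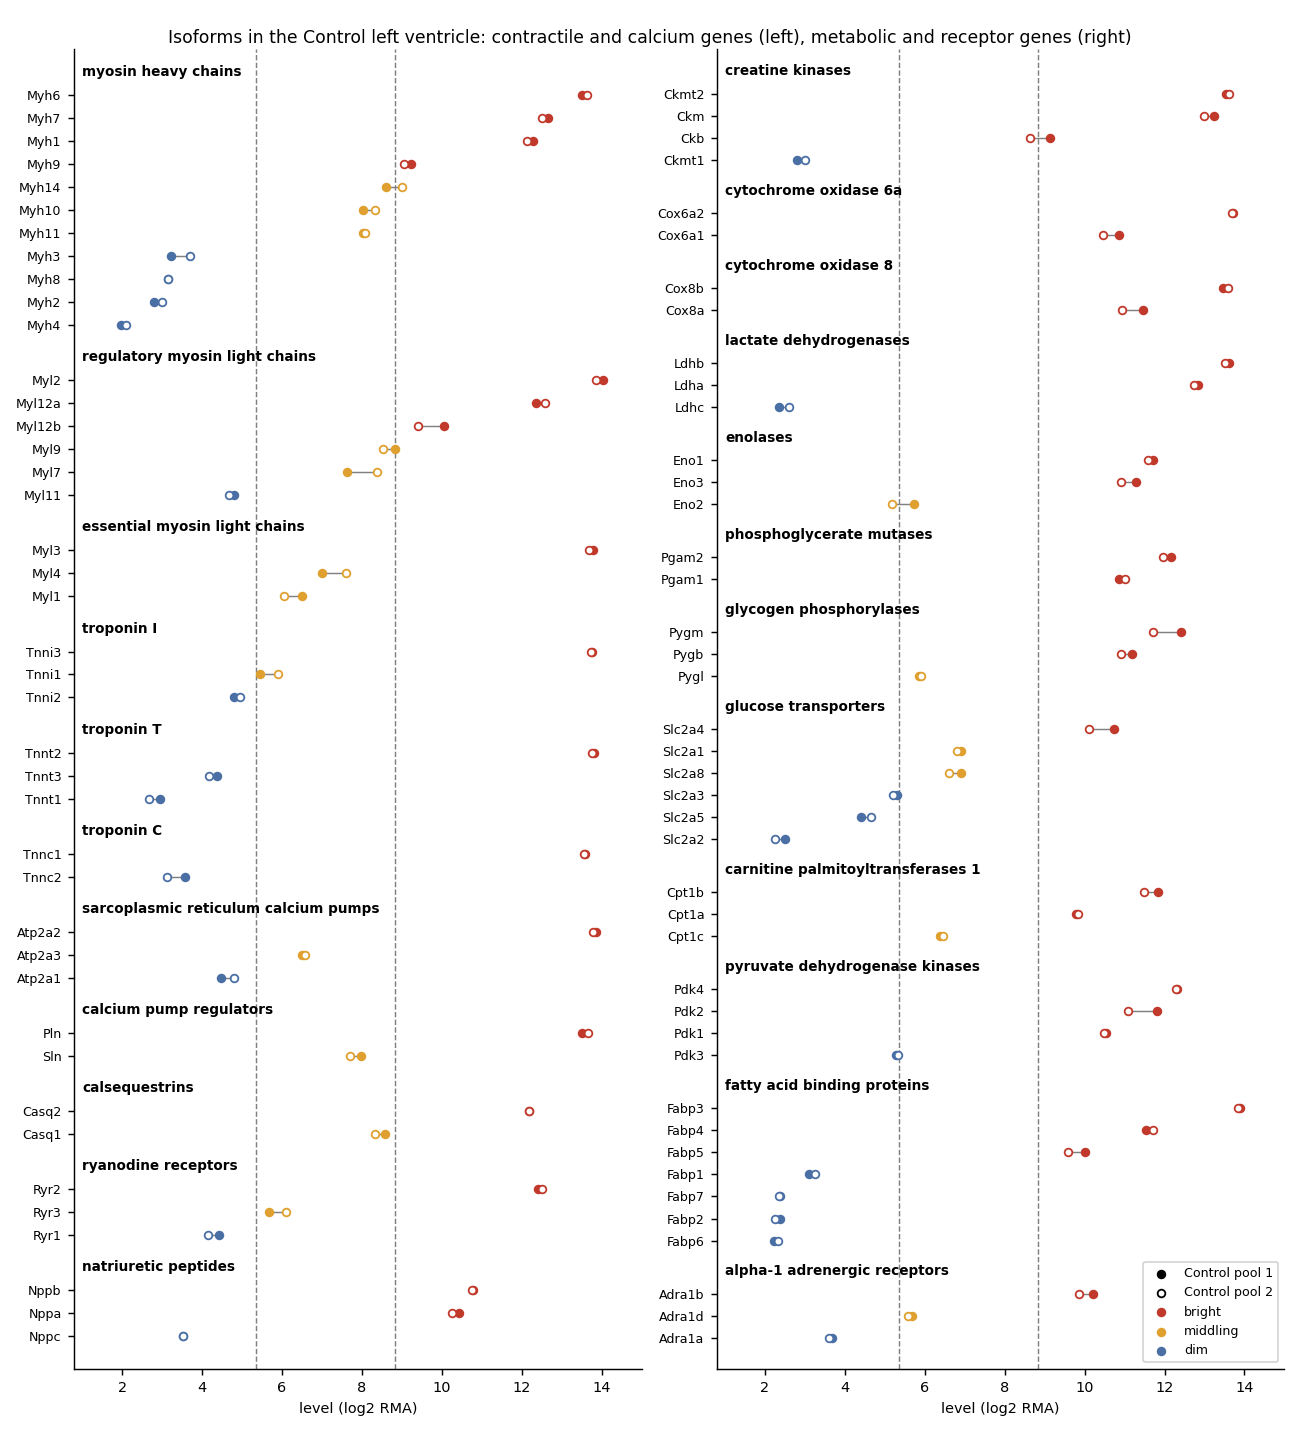
Isoforms of gene families in the Control left ventricle, with levels on the log2 scale (horizontal axis); filled circles are pool 1, open circles pool 2, and colour gives the class of the mean. Dashed lines are the limits 5.35 and 8.84. In some families 1 member alone is far to the right, such as Tnni3, Tnnt2, Atp2a2 and Ryr2. In others several members are bright, as in the creatine kinases and the pyruvate dehydrogenase kinases. The 2 pools lie close together.

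Of 53 families with several measured members, 51 had the same brightest member in both pools and 45 kept the whole order. In the family of estrogen-related receptors, nuclear receptors of energy metabolism, the leader was Esrra in pool 1 (9.27, with Esrrg at 8.36) and Esrrg in pool 2 (8.80, with Esrra at 8.76). In the family of aquaporins, water and glycerol channels, it was Aqp1 in pool 1 (10.69, with Aqp7 at 10.66) and Aqp7 in pool 2 (10.66, with Aqp1 at 10.51). When each gene was taken at the mean of its probe sets, the leader stayed in 46 of 53 families. It then changed in the light chains to Myl12a, in the tropomyosins to Tpm4 and in the connexins to Gjc1, among others.

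Mitochondrial energy genes were bright almost without exception. All 35 measured subunits of complex I, 12 of 12 genes of complexes II and III and 14 of 14 of ATP synthase were bright, as were 12 of 15 of complex IV. Together 73 of 76 were bright, with a median of 12.45. The exceptions belonged to complex IV. Cox6b2, the form of testis, was dim (3.22 and 2.99), and Cox4i2, a form known from lung, was middling (6.77 and 5.04). Cox5a was middling on the probe set that carries its symbol alone (7.24 and 7.29), while a probe set that carries it beside another symbol had a mean of 13.01. The brightest of complex I were Ndufb9, Ndufa4, Ndufb11 and Ndufab1, and those of complexes II and III were Uqcrc1, Uqcrc2, Sdhb and Uqcrfs1. Citric acid cycle genes were bright in 18 of 18 cases, led by Idh2 (13.50 and 13.51), Mdh1 (13.27 and 13.36), the citrate synthase Cs (12.91 and 12.77) and Ogdh. The 11 measured genes of energy transfer were all bright, among them the mitochondrial creatine kinase Ckmt2 (13.53 and 13.60), the muscle creatine kinase Ckm (13.25 and 12.99) and the brain form Ckb (9.14 and 8.63), which in pool 2 lay below the limit.

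Fuel genes differed by pathway. Fatty acid uptake and oxidation genes were bright in 22 of 22 cases, led by Fabp3 (13.89 and 13.83), the dehydrogenases Acadl (13.23 and 13.16) and Acadm (13.07 and 13.11) and the lipoprotein lipase Lpl (13.04 and 13.04). Fatty acid and sterol synthesis genes were bright in 2 of 17 cases, Elovl5 and Fdft1, with Elovl1 and Acaca next and a median of 6.84. The desaturase Scd was dim (3.40 and 3.44), and fatty acid synthase (Fasn) was middling (6.37 and 6.56). Glycolysis and glucose uptake genes were bright in 16 of 21 cases, led by the heart lactate dehydrogenase Ldhb (13.62 and 13.51), Aldoa, Ldha and Pgk1. The insulin-responsive transporter Slc2a4 was bright (10.74 and 10.10), and the basal transporter Slc2a1 was middling (6.90 and 6.81). Hexokinase Hk1 was bright and Hk2 middling at 5.60 and 5.34, while Aldoc was dim. Of the ketone genes Oxct1, which lets the heart use ketone bodies, read 12.52 and 12.45, followed by Acat1 (11.68 and 11.98) and the middling Bdh1 (7.83 and 7.92).

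Genes known to respond to fasting and glucocorticoids were spread over the classes, with 6 of 20 bright and 12 middling. Txnip, an inhibitor of thioredoxin and glucose uptake, read 12.26 and 12.38. Pdk4, the kinase that shuts pyruvate dehydrogenase in the fasted state, read 12.32 and 12.29 and was the brightest of its family, followed by Pdk2 and Pdk1, while Pdk3 was dim. Klf9 (10.73 and 10.68) and Tsc22d3 (9.15 and 9.24), both glucocorticoid targets, were bright as well. The muscle ubiquitin ligase Trim63 was bright (a mean of 9.09), and its partner in muscle wasting, Fbxo32, was dim (4.43 and 4.25). All rats were fasted, so no fed level stands beside these values.

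Several metabolic enzymes had 2 bright isoforms, the muscle or heart form and the general or liver form. Cox8b (13.46 and 13.58) stood beside Cox8a (11.46 and 10.93), Cox6a2 (13.71 and 13.69) beside Cox6a1 (10.86 and 10.46), and Pgam2 (12.17 and 11.96) beside Pgam1 (10.87 and 11.02). Among enolases the general Eno1 was above the muscle Eno3 in both pools, at 11.71 and 11.58 for Eno1 and 11.27 and 10.91 for Eno3. Carnitine palmitoyltransferase Cpt1b, the muscle form of the gate for fatty acid entry into mitochondria, read 11.84 and 11.49, and the liver form Cpt1a read 9.78 and 9.83.

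Promoters of these isoforms are shown because they differ in letters that the ranking did not use. Each holds the 250 bases before the start of the gene and the first 50 bases from it, 5′ to 3′, from RefSeq on GRCr8. Capitals mark CG dinucleotides, the letters TATAAA where they lie 45 to 16 bases before the start, and a match to the MEF2 consensus, the site of a muscle transcription factor family.
Cox8b (chr1:205408224-205408523, minus strand): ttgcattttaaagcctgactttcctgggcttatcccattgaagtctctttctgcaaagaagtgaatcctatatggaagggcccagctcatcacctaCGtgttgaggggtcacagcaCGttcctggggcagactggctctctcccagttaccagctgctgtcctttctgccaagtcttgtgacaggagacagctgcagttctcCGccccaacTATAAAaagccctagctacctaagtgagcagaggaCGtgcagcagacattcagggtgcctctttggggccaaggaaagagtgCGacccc
Cox8a (chr1:213833574-213833873, minus strand): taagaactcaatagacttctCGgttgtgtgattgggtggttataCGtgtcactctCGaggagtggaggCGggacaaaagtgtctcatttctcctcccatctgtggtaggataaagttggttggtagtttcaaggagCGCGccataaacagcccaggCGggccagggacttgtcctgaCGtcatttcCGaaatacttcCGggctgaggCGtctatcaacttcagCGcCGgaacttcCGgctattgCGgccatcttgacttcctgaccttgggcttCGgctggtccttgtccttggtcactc
Pgam2 (chr14:84897825-84898124, minus strand): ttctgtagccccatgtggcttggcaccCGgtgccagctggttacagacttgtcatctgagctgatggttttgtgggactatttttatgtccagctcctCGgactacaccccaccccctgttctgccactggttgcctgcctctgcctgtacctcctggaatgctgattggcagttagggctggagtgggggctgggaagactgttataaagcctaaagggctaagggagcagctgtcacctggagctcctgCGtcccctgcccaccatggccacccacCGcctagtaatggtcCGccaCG
Pgam1 (chr1:250672902-250673201, plus strand): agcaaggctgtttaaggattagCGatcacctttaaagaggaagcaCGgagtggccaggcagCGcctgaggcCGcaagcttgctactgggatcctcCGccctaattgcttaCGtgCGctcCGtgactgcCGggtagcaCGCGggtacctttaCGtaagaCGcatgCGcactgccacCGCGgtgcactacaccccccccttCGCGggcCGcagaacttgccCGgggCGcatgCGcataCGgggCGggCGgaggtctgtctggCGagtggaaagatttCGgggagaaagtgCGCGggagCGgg
Cox6a2 (chr1:192219667-192219966, minus strand): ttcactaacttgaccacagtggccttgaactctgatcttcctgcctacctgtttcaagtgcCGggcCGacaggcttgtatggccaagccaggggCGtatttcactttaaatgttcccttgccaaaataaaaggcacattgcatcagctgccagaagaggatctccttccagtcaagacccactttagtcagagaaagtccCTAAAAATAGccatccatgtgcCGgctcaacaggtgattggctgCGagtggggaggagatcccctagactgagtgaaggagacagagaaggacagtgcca
The Cox8b window holds 5 CG dinucleotides, and TATAAA begins 39 bases before the start, while the Cox8a window holds 16 and no TATAAA. Pgam2 holds 6 and Pgam1 30. The Pgam2 window also has TATAAA beginning 46 bases before the start, just outside the stretch that was searched. Cox6a2 holds 5 CG dinucleotides and the 1 MEF2 match among the windows shown. The CpG ratio, the observed number of CG dinucleotides over the number expected from the C and G content, was 0.241 for Cox8b and 0.762 for Cox8a, and 0.238 for Pgam2 and 1.01 for Pgam1. In 7 pairs of a heart or muscle isoform and another isoform, the ratio was lower for the heart or muscle isoform in 6. The other isoform was not always a general form, since Ckb is the brain form. The other pairs in which it was lower, with the heart or muscle isoform first, were Eno3 (0.107) and Eno1 (0.650), Pygm (0.292) and Pygb (0.779), Ckm (0.211) and Ckb (0.949), and Ldhb (0.483) and Ldha (0.881). The exception was Slc25a4 (0.765) and Slc25a5 (0.742). These pairs were picked after the values had been seen.

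Over all genes, the promoter letters differed mainly between dim genes and the rest. For 11700 genes with a RefSeq promoter, the median CpG ratio was 0.793 in bright genes, 0.780 in middling genes and 0.50 in dim genes. Median GC content was 61% in bright, 61.3% in middling and 57.0% in dim promoters. TATAAA was present in 1.96% of bright, 1.04% of middling and 4.06% of dim promoters, and in 2.21% of all. In 10 equal groups of genes by level, the share with TATAAA was 6.07% in the dimmest group, 0.769% to 1.11% in groups 5 to 9 and 2.65% in the brightest.

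**Figure D3:**
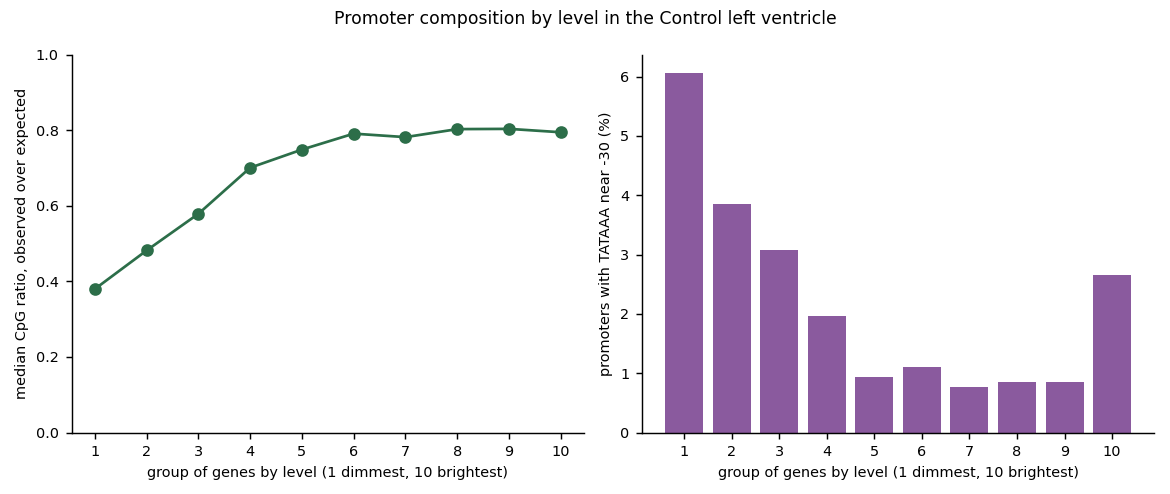
Promoter composition in 10 equal groups of genes, from the dimmest (1) to the brightest (10) in the Control left ventricle, 1170 genes in each. Left, the median CpG ratio (observed over expected), which lies at 0.380 in the dimmest group and 0.795 in the brightest; right, the share of promoters with TATAAA 45 to 16 bases before the start, which is 6.07% in the dimmest group, 0.769% in group 7 and 2.65% in the brightest.

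The 2 leading groups of bright genes had unlike promoters. The sarcomere lists had a median CpG ratio of 0.326 over 31 promoters, and the respiratory chain and ATP synthase had 0.830 over 68, beside 0.724 for all genes. The MEF2 consensus was present in 6 of 31 sarcomere promoters (19.4%), against 1.71% of all promoters. The letters CATTCC, read on both strands and known as the MCAT element, were in 11 of 31 (35.5%), against 11.7% of all. These traits were not particular to bright sarcomere genes. Skeletal muscle markers, of which 14 of 19 were dim, had a median CpG ratio of 0.286. Of their promoters 2 of 17 held the MEF2 consensus (11.8%) and 4 of 17 CATTCC (23.5%). Of the promoters of listed heat shock proteins 3 of 17 held the MEF2 consensus (17.6%) and 1 of 17 CATTCC (5.88%). The letters AAGATGGC, read on both strands and part of the YY1 site, were in 15 of 68 respiratory chain promoters (22.1%), against 4.72% of all. They were not particular to this group. Mitochondrial ribosomal proteins had them in 14 of 59 promoters (23.7%), proteasome subunits in 7 of 40 (17.5%) and cytosolic ribosomal proteins in 4 of 34 (11.8%). Genes of other organs had a median CpG ratio of 0.268 and TATAAA in 18 of 46 promoters (39.1%). A match in these windows is a description of letters only.

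Receptors and control genes lay at different levels. Of receptors for adrenaline, acetylcholine, angiotensin and adenosine 1 of 16 was bright and 12 were dim, beside 34.8% dim among all genes. The bright receptor was Adra1b, an alpha-1 adrenergic receptor (10.22 and 9.86). Adrb1, the main beta receptor of the heart, was dim at 4.97 and 4.62, and the muscarinic Chrm2, the target of the vagus nerve, was middling at 5.55 and 5.81, as were Adora2a and Adra1d. Of 27 transcription factors of heart and energy metabolism 7 were bright (25.9%) and 4 dim (14.8%), with a median of 7.99, against 6.55 for all genes. The bright ones were Mef2a (10.24 and 10.37), Nkx2-5 (10.28 and 9.26), Mef2c, Tfam, Esrra, Srf and Gata4. Gata4 (9.34 and 8.38) and Esrra (9.27 and 8.76) were above the limit in pool 1 and below it in pool 2, and 5 of the 27 were bright without pool 1. Ppara, the fatty acid sensor, was dim on its 1 probe set (4.61 and 4.37). The 16 measured clock genes were middling in 14 cases, with Nr1d2 bright (9.46 and 9.54), Bhlhe41, Nr1d1 and Clock next, and Hlf dim.

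The listed ion channel genes were bright about as often as genes in general. Potassium channel genes counted by symbol were bright less often, in 3 of 75 cases (4%), and 55 were dim (73.3%). Of 19 listed potassium channel genes 3 were bright (15.8%, against 16.6% of all genes) and 6 dim. With the mean of all probe sets of a gene 0 of the listed genes were bright. The bright ones were Kcnip2, the partner of the transient outward channel (11.77 and 11.42), and the subunits of the ATP-sensitive channel Abcc9 (10.48 and 10.32) and Kcnj11 (9.62 and 9.69), with Kcnk3 next (8.98 and 8.17). Kcnj2, a channel of the resting potential, was dim on its 1 probe set (3.05 and 3.05). Of 13 sodium, pacemaker and gap junction genes 2 were bright (15.4%) and 7 dim (53.8%). The bright ones were the connexin Gja1 that joins ventricular muscle cells (12.64 and 12.58) and the sodium channel subunit Scn4b (10.66 and 10.96). The pacemaker channel Hcn4 was dim (4.86 and 4.75), and Hcn2 was middling (7.76 and 7.23). Of 8 genes of the sodium pump and ion exchangers 4 were bright. They were the pump regulator Fxyd1 (11.13 and 10.93), the pump subunits Atp1b1 and Atp1b3, and the anion exchanger Slc4a3 (9.08 and 8.78). Slc4a3 lay below the limit in pool 2. Of the load genes the natriuretic peptides Nppb (10.79 and 10.75) and Nppa (10.43 and 10.26) were bright, Npr2, a natriuretic peptide receptor, was middling, and Nppc was dim. Rcan1, a calcineurin target and regulator, read 11.22 and 11.17.

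The listed heat shock and antioxidant genes were largely bright. Of the listed heat shock proteins 15 of 18 were bright, while Hspa2 was dim (3.33 and 3.24). In front were the small heat shock proteins Hspb6 (13.24 and 13.28) and Hspb7 (13.06 and 12.20). The chaperones Hsp90ab1 (12.36 and 12.08) and Hspd1 (12.19 and 12.19) came next. Counted by symbol, heat shock and DnaJ proteins together were bright in 24 of 63 cases (38.1%) and dim in 8 (12.7%). Of antioxidant genes 17 of 25 were bright, led by glutathione peroxidase Gpx1 (13.16 and 13.12) and superoxide dismutase Sod1 (12.28 and 12.03), followed by Gpx4 and Prdx3, while glutathione reductase Gsr was dim (4.41 and 4.38). Genes of general cell upkeep were bright in 8 of 12 cases, led by B2m, Eef1a1, Sdha and Pgk1. Immediate early genes, which answer to stress within minutes, were bright in 4 of 24 cases, about the share of all genes, namely Dusp1 (10.53 and 10.12), Klf2, Jund and Klf4. With the mean of all probe sets of a gene 1 was bright. Fos itself was middling at 7.51 and 6.36, with a gap of more than 1 between the pools.

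The labelled tissue was checked against markers. Of 14 measured markers of ventricular muscle 12 were bright, with Irx4 middling (7.97 and 8.51) and Hand1 dim (4.80 and 4.76), both of them regulators of early ventricular development. Of 11 atrial markers 3 were bright, namely Pam, Nppa and Dkk3, while Myl7, Myl4 and Sln were middling. The atrial list was bright in 27.3% of cases and dim in 27.3%, with a median of 7.31, which is not below that of all genes, so these values do not show that atrial tissue was absent. Of 19 skeletal muscle markers 14 were dim, and the bright ones were Acta1 and the probe sets annotated as Myh1. The fast skeletal regulatory light chain Myl11, parvalbumin (Pvalb) and the myogenic factors Myod1 and Myog were dim, at 2.35 to 4.74. Of 9 conduction system markers 0 were bright and 5 dim, and the highest were Irx3, Gja5, Shox2 and Cpne5.

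Other cell types of the wall were visible to different degrees. In tissue RNA, fewer cells of a type and less RNA per cell cannot be told apart. Of fibroblast markers 9 of 17 were bright, led by decorin (Dcn, 12.78 and 12.71), gelsolin (Gsn), Col3a1 (11.83 and 11.44) and Dpt, while Thy1 and Dpep1 were dim and Postn, known from activated fibroblasts, was middling (5.79 and 5.73). Of the listed collagen and basement membrane genes 16 of 26 were bright and 0 dim, with Dcn, Col3a1, Sparc and Lum in front. Collagen genes counted by symbol were bright in 9 of 41 cases (22.0%) and dim in 23 (56.1%). Of endothelial markers 10 of 18 were bright, led by Fabp4 (11.54 and 11.72), the water channel Aqp1 (10.69 and 10.51) and the growth factor receptors Kdr (9.88 and 9.91) and Tek (9.62 and 9.88), while Plvap was dim. With bright as the top 5% of probe sets, 3 of the 18 were bright. Of smooth muscle and pericyte markers 5 of 15 were bright, among them Des, which cardiac muscle also makes, Abcc9, the pericyte gene Rgs5 (9.44 and 9.68) and Mylk.

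Blood and immune genes were lower, apart from globins. Of 15 macrophage markers 12 were middling and 1 bright, the lysozyme Lyz2 (a mean of 10.98), followed by C1qa, Lyve1 and C1qc. Lymphocyte markers were bright in 0 of 12 cases and dim in 8, and the middling ones were Ptprc, Klrd1, Nkg7 and Gzmb. Neutrophil markers were bright in 0 of 9 and dim in 7, with Lcn2 and S100a9 middling and S100a8 and Csf3r the next. The globins Hbb (12.30 and 12.49) and Hba-a3 (9.87 and 9.96) were bright and Alas2 and Slc4a1 middling, while the erythroid factor Gata1 was dim (3.91 and 3.89). The alpha globins Hba-a1 and Hba-a2 had no probe set of their own, and the brightest they share read 13.40 and 13.44. Of epicardial markers 0 of 11 were bright, and the highest were Tcf21, Wt1, Gpm6a and Lrrn4. Of Schwann cell and nerve markers 1 of 14 was bright, the myelin gene Pmp22, which other cells also make, and Npy, Mbp and Prx were middling.

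The adipocyte list was split. Adiponectin (Adipoq, 3.50 and 3.29), leptin (Lep), Plin1 and Cidec, which mark fat cells, were dim, as was Ucp1 of brown fat (3.44 and 3.47). Cidea, a lipid droplet protein best known from brown fat, was bright at 11.23 and 10.99. The lipid droplet protein Plin4 (10.51 and 10.55), the lipase Pnpla2 (10.53 and 10.05), Gpd1 and Fabp4 were bright too.

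Genes that define other organs gave the low end of the scale. Of 61 measured, 58 were dim, with a median of 3.21 and a 95th percentile of 5.25, and 66.4% of all genes lay above that percentile. The bright gene of this list was Ttr, the thyroxine carrier made by liver and choroid plexus, at 8.86 and 9.04. Krt10 and Slc12a3 were middling, and Lhb was the next.

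Counted by symbol, families parted in the same way. Cytosolic ribosomal proteins were bright in 37 of 41 cases, mitochondrial ribosomal proteins in 60 of 73 and proteasome subunits in 32 of 44, and no gene of the last 2 families was dim. The 3 dim ribosomal genes, Rpl28, Rps13 and Rpl30, were dim on the 1 probe set that carries the symbol alone. Probe sets that carry the same symbols beside those of near copies read 12.14 for Rpl28, 11.99 for Rps13 and 12.08 for Rpl30. At the other end, vomeronasal and taste receptors were dim in 23 of 23 cases, serine proteases in 37 of 38, keratins in 24 of 25, olfactory receptors in 17 of 18, Hox genes in 22 of 24 and receptors for GABA, glutamate and glycine in 41 of 44. A few members of mostly dim families were bright by the mean of the pools. Prss23 was the 1 bright serine protease (9.25 and 9.58). The 2 bright genes were Cyp27a1 (9.46 and 9.21) and Cyp20a1 (8.72 and 9.05) of 57 cytochromes P450, and Fgf1 (11.27 and 10.94) and Fgf13 (8.76 and 9.21) of 22 fibroblast growth factors. Of 33 cadherins and protocadherins they were Cdh2, the cadherin of cardiac cell junctions (10.29 and 10.03), and Cdh13 (9.28 and 8.80).

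**Figure D4:**
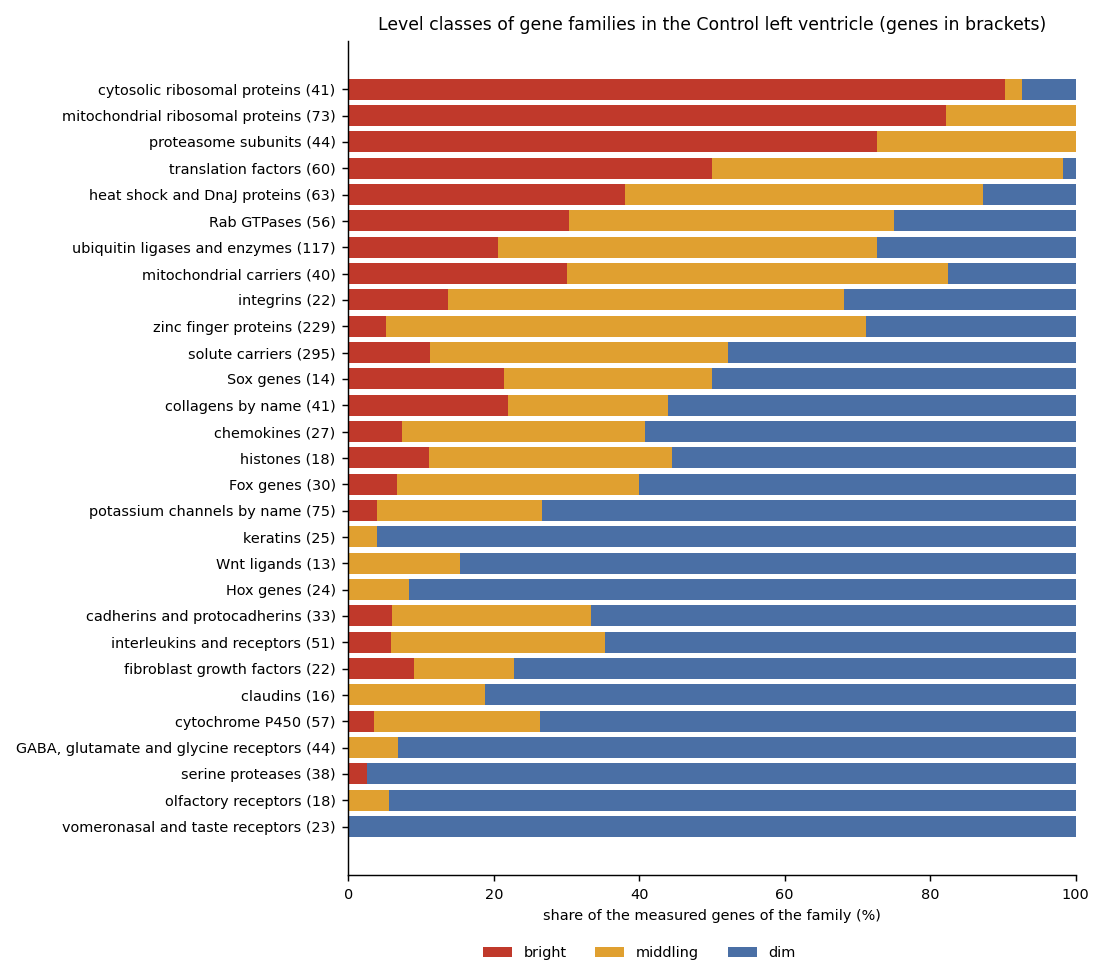
Share of bright, middling and dim genes (horizontal axis, %) in 29 families defined by gene symbol in the Control left ventricle, ordered by family median, with the number of measured genes in brackets. Ribosomal and proteasome families are mostly bright at the top, and vomeronasal, olfactory and protease families are almost wholly dim at the bottom. Keratins are almost wholly dim too, but stand higher by their median.

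A level depends on which probe set reads the gene. For 4525 genes with several probe sets, the brightest and the dimmest differed by a median of 1.94, and by 2 or more in 2200 genes (48.6%). Of 962 such genes whose brightest probe set was bright, 338 (35.1%) also had a dim one. Tpm1 is an example: 3 of its 7 probe sets read between 13.38 and 13.86, and the dimmest read 2.63. A dim call on a gene with 1 probe set, such as Adrb1 or Ppara, therefore rests on that probe set alone.

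The 2 Control pools were close, with a correlation of 0.993 across probe sets, which are not independent replicates, and a median absolute difference of 0.166. They differed by 1 or more on the log2 scale, a fold of at least 2, in 186 probe sets (0.599%). Of these, 172 were higher in pool 1 (0.554%) and 14 in pool 2 (0.0451%). Over genes the count was 101 (0.71%), of which 93 were higher in pool 1 (0.654% of genes). The same count was 120 between the Western plus DHA pools, with 68 higher in pool 1, and 19 between the Western pools, with 7 higher in pool 1. With 2 pools there is no test of these counts. Among genes at or above the median, the 10 with the largest difference were all higher in pool 1. They were Epn1 (7.40 and 5.37), Ubl5 (11.21 and 9.19), Raver1, Adrm1, Eef1a2 (11.95 and 10.15), Cox20, Cox4i2, Cln3, Scaf1 and Ubl7.

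**Figure D5:**
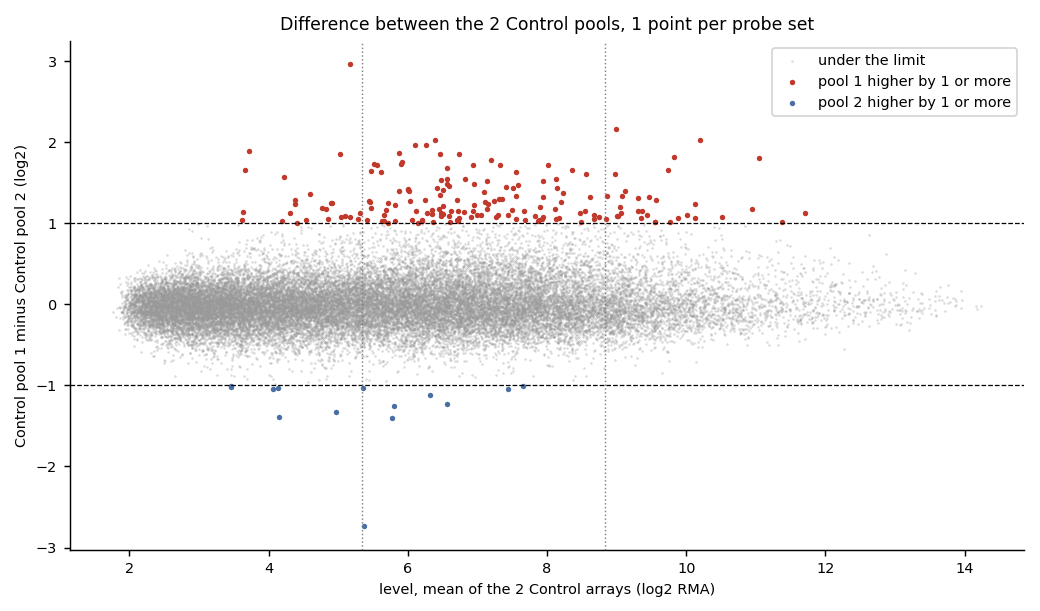
Difference between the 2 Control pools (vertical axis, pool 1 minus pool 2, log2) against the mean level (horizontal axis, log2), 1 point per probe set. Dashed lines mark differences of 1 and -1; 172 probe sets lie at or above the upper line and 14 at or below the lower one. Dotted lines are the limits 5.35 and 8.84.

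Some lists differed between the pools as well. The median difference, pool 1 minus pool 2, was 0.39 for immediate early genes, with 18 of 24 higher in pool 1. For the listed collagen and basement membrane genes it was 0.25, with 18 of 26 higher. Against this, it was -0.01 for all genes, of which 6827 of 14217 were higher in pool 1. Collagen genes counted by symbol had a median difference of 0.02, with 23 of 41 higher in pool 1. Other lists leaned to pool 1 by smaller medians, among them antioxidant genes (0.10, 20 of 25 higher), glycolysis and glucose uptake (0.13, 17 of 21) and endothelium (0.19, 14 of 18). Clock genes leaned to pool 2 (-0.08, 5 of 16 higher in pool 1). Nr4a1, an immediate early nuclear receptor, read 9.19 in pool 1 and 7.53 in pool 2, and Col1a1 read 9.53 and 8.19. Genes higher in pool 1 by 1 or more were also counted in 5 groups by promoter GC content. From the lowest to the highest they were 3 of 2377, 14 of 2332, 17 of 2322, 13 of 2372 and 27 of 2297. The share over all genes was 0.654%. The lowest group was also dimmer, with a median level of 5.18 in pool 1, against 7.09 in the highest, so GC content and level were not separated. The manufacturer's controls with probe sets at both ends of a transcript also differed. The 3′ minus 5′ difference was 0.68 in pool 1 and 0.30 in pool 2 for Gapdh, and 1.82 and 1.49 for beta-actin. Among spiked-in transcripts it was higher in pool 1 for dap (1.20 and 0.83), phe (1.17 and 0.67) and thr (1.53 and 1.13), and close for lys (1.71 and 1.66) and trp (-0.21 and -0.23). The part of these controls in the pool difference was not tested.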

How the data were processed

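Left ventricular RNA of 2 Control pools of 5 rats each was extracted with TRIzol, treated with DNase and labelled with biotin (5 µg per array), per the labels' protocols. The authors deposited log2 values, for which the submitters' processing notes name RMA and R 2.11.0. RMA gives all arrays 1 distribution, so overall RNA amounts were not measured. For steps before RMA the sources used here give no detail.

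Of 31099 probe sets, 57 manufacturer's controls were left out. Gene symbols of the platform table were replaced by the current ones of RefSeq (GRCr8) where the Entrez number matched, as it did for 20758 of the 20826 probe sets with a single symbol. The 436 probe sets with more than 1 symbol and the 9780 without any were ranked among probe sets and not counted as genes. A few with more than 1 symbol are named in the text. The members and lists were chosen with earlier results of these data known. There were 42 gene lists (27 of programmes and 15 of markers) and 56 isoform families, and families by symbol pattern were trimmed of stray symbols after they were seen.

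The text names the 30 brightest genes, of each list its 4 brightest members and those in the opposite class to most of the list, members of the isoform families, and the 10 largest pool differences at or above the median. Other named genes were chosen after their values were seen. No test was made, since 2 pools of 1 diet hold no comparison, and the number of arrays limits the precision. Protein sequences were not used here. Steps were tested on simulated data. Python 3.11.15, pandas 2.3.3, R 4.3.3 and limma 3.58.1 (cyclic loess and quantile alternatives) were used.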

Additional observations from a re-analysis of the deposited data

How the results depend on the processing

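No paired analysis was possible because no groups were compared and no result came from a test. Lists with over 50% of their measured genes bright numbered 20, and between 15 (mean of all probe sets) and 24 (bright as the top 20%) under the alternatives. Leaving out 1 pool gave 18 and 20. Of the 42 lists, the count of bright genes moved by over 1.5 times in 10 with bright as the top 20%, in 10 with the top 5%, in 9 with the mean of all probe sets, in 2 without the probe sets that can bind several transcripts (names ending in _s_at, _x_at or _a_at), and in 0 when either pool was left out. Of the 30 brightest genes, 23 stayed with the mean of all probe sets and 25 without the probe sets that can bind several transcripts. Leaving out pool 1 kept 29 of them and leaving out pool 2 kept 27. Without the probe sets that can bind several transcripts, Tpm4 and not Tpm1 was the brightest tropomyosin. The limit of 0.5 for the pool difference gave 2225 probe sets, of which 66.8% were higher in pool 1, against 186 and 92.5%. The median CpG ratio of bright minus dim promoters was 0.293. It was 0.229 with the mean of all probe sets, 0.286 without the probe sets that can bind several transcripts, and at lowest 0.286 and at highest 0.294 when 1 pool was left out. The GC difference was 4 percentage points, and 2.33 with the mean of all probe sets. The TATAAA difference was -2.10 percentage points, -1.16 with the mean of all probe sets and -1.95 without the probe sets that can bind several transcripts. It lay between -2.15 and -2.08 when 1 pool was left out. The median range between probe sets of a gene was 1.94, and between 1.94 and 1.96 when 1 pool was left out. The class counts depend on the top 10% limit, and a dim level can come from a probe set that binds poorly.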

Other observations

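By chromosome of GRCr8, genes of the X chromosome were bright in 62 of 445 cases (13.9%) and dim in 44.5%. On autosomes between 65 of 464 genes (chromosome 14) and 20.4% (chromosome 6) were bright, and 27.8% to 39.7% were dim. Of 243 genes annotated as long noncoding RNA, 8 were bright (3.29%) and 71.2% dim, against 16.9% bright and 34.1% dim among 13884 protein-coding genes. Among chemokine genes the interferon-induced Cxcl11 was bright (10.42 and 10.62), beside Cxcl12 (10.37 and 10.63), while 16 of 27 were dim.

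Probe sets without a symbol were dim more often than those with 1 symbol, at 68.3% and 41.8%. Still 321 of the 9780 were bright, and the brightest of them read 14.17. Among the 50 brightest probe sets, 39 carried a single symbol, 7 carried more than 1 and 4 carried no symbol.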
